A study of Mus musculus with 20 samples.

Results

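Igkc, Ighm, Jchain, Mzb1, Cd79a, Cd79b, Ms4a1 and Irf4 are genes of B cells and of the plasma cells that B cells become, 8 of the 43422 genes listed for each mouse abdominal aorta. They were chosen with results of these mice known: Igkc had the largest increase in saline-treated Plod1-/- mice over saline-treated WT mice, and the other 7 genes were taken for their roles in the same cells. The genotype difference under saline is therefore given for all 8 genes as a description with no test. Igkc was tested only between the Ang II-treated genotypes, whose mice the choice did not use. The other 7 genes were tested in every comparison with Ang II, although the comparisons with a saline group share mice with the contrast that chose Igkc.

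RNA was sequenced from the abdominal aortas of 20 mice labelled as C57BL/6 and 6 months old, with 5 mice in each of 4 groups. The methods name the substrain C57Bl/6NCrl and a younger age at the start of infusion, and this disagreement with the labels was not settled. WT mice and Plod1-/- mice, which lack lysyl hydroxylase 1 (LH1), an enzyme that hydroxylates lysines of collagen, carried osmotic pumps under the skin for 14 days that delivered saline or angiotensin II (Ang II), a peptide that raises blood pressure, at 1000 ng/kg per minute. All 4 groups had a pump, and the methods describe male littermates of heterozygous parents, so Plod1 was lost from the germline and not from a chosen cell type. The authors deposited fragments per kilobase of transcript, scaled for library size (FPKM), so that levels can be compared between genes per length.

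Plod1, the targeted gene, was listed at 22.8 to 29.7 FPKM in WT mice and at no more than 0.0415 FPKM in Plod1-/- mice. Xist, an RNA of the inactive X chromosome of female cells, reached 15.1 FPKM in replicate 5 of the saline-treated Plod1-/- mice and 7.93 FPKM in replicate 1 of the Ang II-treated Plod1-/- mice, and its highest value in the remaining mice was 0.0328 FPKM. These 2 libraries go against the male mice of the methods, and results that change without them are given both ways. Smooth muscle genes summed to between 2362 and 20940 FPKM, so the tissue markers were present in all libraries. Depth in reads is unknown because the values are FPKM, but the lowest values of weakly expressed genes placed the relative depths of the libraries between 0.903 and 1.09. In whole tissue, more cells of a type and more RNA per cell cannot be told apart.

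The 8 genes lie on 8 different chromosomes of GRCm38. Igkc (ENSMUSG00000076609) is on chromosome 6 from 70726435 to 70726966, Ighm (ENSMUSG00000076617) on chromosome 12 from 113418558 to 113422730, Jchain (ENSMUSG00000067149) on chromosome 5 from 88519809 to 88527891 and Mzb1 (ENSMUSG00000024353) on chromosome 18 from 35647267 to 35649367. The receptor genes are Cd79a (ENSMUSG00000003379) on chromosome 7 from 24897381 to 24902197 and Cd79b (ENSMUSG00000040592) on chromosome 11 from 106311341 to 106314762. Ms4a1 (ENSMUSG00000024673) is on chromosome 19 from 11249675 to 11266241. Irf4 (ENSMUSG00000021356) is on chromosome 13 from 30749226 to 30766976. The libraries did not keep the strand, and Ms4a1 overlaps the opposite-strand gene 4930526L06Rik, which was listed at up to 0.291 FPKM, so the low Ms4a1 values are uncertain. Igkc overlaps the long noncoding RNA Gm30211 on its own strand, which was listed at up to 0.162 FPKM. GENCODE also places a protein-coding gene named SPATA24 over 2100 bases of Mzb1 on the same strand, which was not analysed here, so reads of Mzb1 may be shared and its values are uncertain.

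B cells carry an antibody on their surface as a receptor, which signals through the partner proteins CD79A and CD79B. Ms4a1 encodes CD20, a surface protein of mature B cells that is lost as they become plasma cells. Plasma cells secrete antibody in large amounts: the kappa light chain (constant part from Igkc) pairs with a heavy chain (Ighm for IgM), the joining chain (Jchain) links IgM and IgA units into polymers, and MZB1 is a chaperone of the endoplasmic reticulum that helps to fold them. IRF4 is a transcription factor needed for plasma cell formation, and it is also made by T cells, macrophages, dendritic cells and adipocytes. In arteries, B cells are known mainly from the adventitia and the fat around the vessel.

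Promoters of Jchain, Cd79a and Irf4, from 250 bases before to 50 bases after the start, are shown because these 3 genes stand for the roles by which the values are described here: antibody secretion, the receptor and transcription. The sequences are from RefSeq (GRCm38.p6), and capitals mark E-boxes (CANNTG, the motif that factors such as E2A bind) and the ETS core of PU.1 type (GAGGAA, or TTCCTC on the other strand).
Jchain, chr5:88527848-88528147, minus strand: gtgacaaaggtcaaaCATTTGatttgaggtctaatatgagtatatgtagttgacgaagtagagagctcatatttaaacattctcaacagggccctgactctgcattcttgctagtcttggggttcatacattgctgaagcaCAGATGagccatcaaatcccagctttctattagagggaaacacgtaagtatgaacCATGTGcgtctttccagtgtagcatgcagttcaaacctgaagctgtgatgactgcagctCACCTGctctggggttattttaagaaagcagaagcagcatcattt
Cd79a, chr7:24897247-24897546, plus strand: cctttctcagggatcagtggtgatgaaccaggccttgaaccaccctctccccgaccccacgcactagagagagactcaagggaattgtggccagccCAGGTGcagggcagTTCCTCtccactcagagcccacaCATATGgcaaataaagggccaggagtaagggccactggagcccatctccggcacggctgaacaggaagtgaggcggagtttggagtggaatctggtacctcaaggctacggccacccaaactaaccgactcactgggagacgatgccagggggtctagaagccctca
Irf4, chr13:30748983-30749282, plus strand: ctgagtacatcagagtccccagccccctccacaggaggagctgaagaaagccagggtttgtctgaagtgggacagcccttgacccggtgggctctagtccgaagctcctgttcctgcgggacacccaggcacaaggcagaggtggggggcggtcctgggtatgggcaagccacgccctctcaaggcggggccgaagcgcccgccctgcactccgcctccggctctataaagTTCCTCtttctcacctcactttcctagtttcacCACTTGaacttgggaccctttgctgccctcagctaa

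Both strands were searched. E-boxes occurred 4 times for Jchain, 2 times for Cd79a and 1 time for Irf4, and 72.3% of the 32851 mouse promoters of this length hold at least 1. The ETS core occurred once each for Cd79a and Irf4 and not for Jchain, against 28.3% of all promoters. The octamer ATGCAAAT (1.74% of promoters), the EBF core CCCNNGGG (13.7%) and the interferon response core (GAAA, any 2 bases and GAAA again, 3.44%) were not found in these 3 windows. These matches describe letters and not binding.

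Antibody RNA was scarce in saline-treated WT aortas and abundant in the other 3 groups, with large differences between mice of 1 group. Igkc was listed at 1.70, 1.81, 9.01, 2.38 and 1.55 FPKM in saline-treated WT mice. In Ang II-treated WT mice its level was 134, 45.6, 23.7, 40.4 and 541 FPKM. Saline-treated Plod1-/- mice had 21.6, 95.8, 80.7, 173 and 14.9 FPKM. The Ang II-treated Plod1-/- mice were at 18.9, 100.5, 24.9, 29.0 and 62.1 FPKM. Every mouse of these 3 groups lay above the highest saline-treated WT mouse, and the 3 groups overlapped each other. The mean Igkc level of WT mice was 3.29 ± 3.21 FPKM with saline and 157 ± 219 FPKM with Ang II, and that of Plod1-/- mice was 77.3 ± 64.4 FPKM with saline and 47.1 ± 34.3 FPKM with Ang II (SD, n = 5 each).

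Ighm, the heavy chain of IgM, had the same order of groups. Its level was 6.38, 1.31, 6.80, 1.87 and 2.12 FPKM in saline-treated WT mice. Under Ang II, the WT mice had 72.3, 21.8, 17.6, 13.5 and 94.4 FPKM. For saline-treated Plod1-/- mice the values were 11.05, 49.1, 31.7, 31.9 and 6.41 FPKM, and for Ang II-treated Plod1-/- mice 8.20, 35.2, 17.04, 15.6 and 49.8 FPKM. Both Ang II groups stood clear of the saline-treated WT mice, whereas saline-treated Plod1-/- replicate 5, a library with Xist RNA, was within their range.

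Jchain was lower than Igkc per length in every mouse but followed it closely. Saline-treated WT mice had 0.288, 0.147, 0.542, 0.222 and 0.0779 FPKM of Jchain, and Ang II-treated WT mice 3.12, 1.31, 0.976, 1.43 and 14.1 FPKM. Saline-treated Plod1-/- mice had 0.697, 2.07, 2.41, 2.48 and 0.439 FPKM, and Ang II-treated Plod1-/- mice 0.733, 3.11, 0.629, 1.36 and 2.75 FPKM. Ang II-treated WT replicate 5, the mouse with the highest Igkc, was also the highest for Jchain. The Mzb1 level was low throughout: in WT mice it ran from 0.0817 to 0.407 FPKM under saline and from 0.196 to 1.99 FPKM under Ang II, in Plod1-/- mice from 0.158 to 0.744 FPKM and from 0.255 to 0.927 FPKM. The 4 Mzb1 ranges overlapped.

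**Figure D1:**
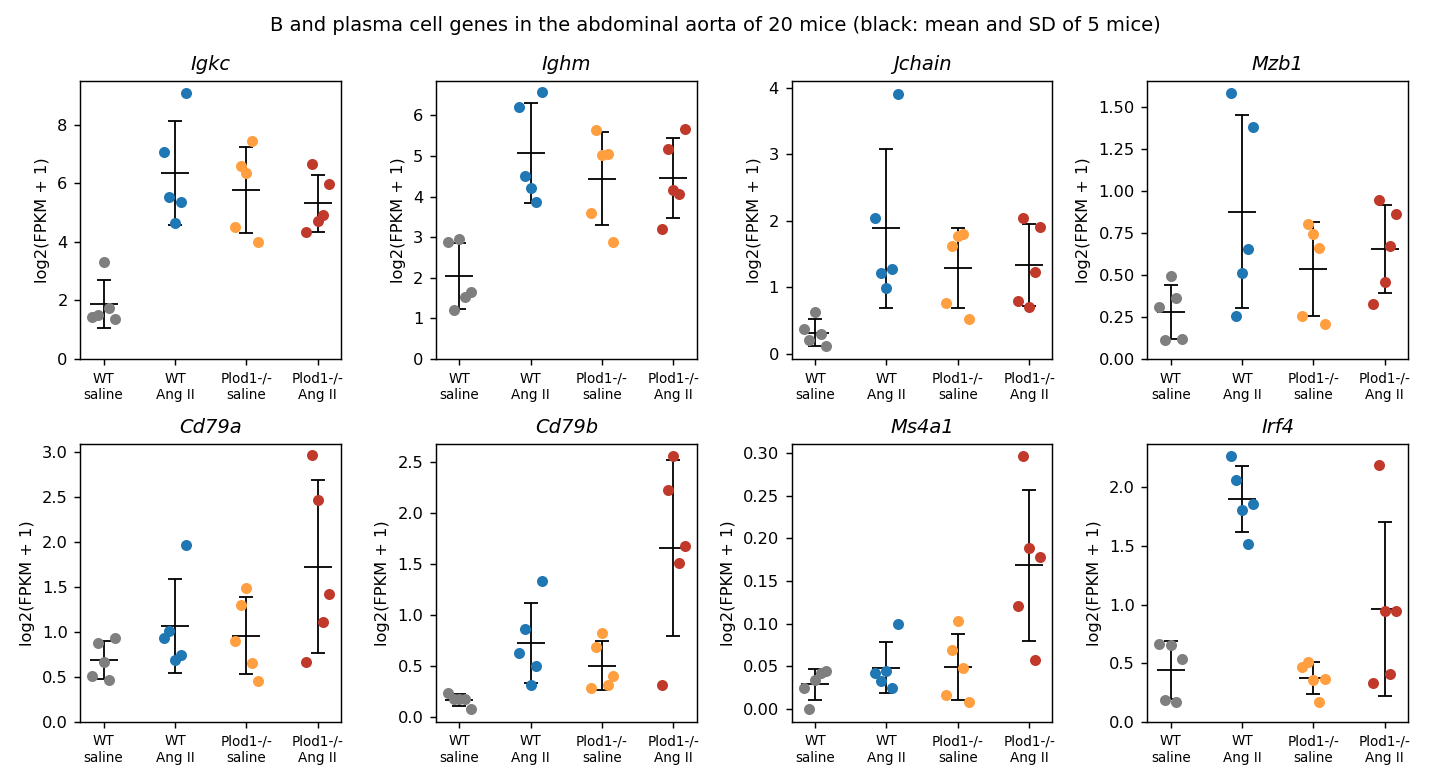
Level of each gene as log2(FPKM + 1) (vertical axis, scaled per gene) in the 4 groups (horizontal axis), 1 point per mouse, with the mean and SD of 5 mice in black. Igkc lay at 1.55 to 9.01 FPKM in saline-treated WT mice and at 14.9 FPKM or more in all other mice, whereas Cd79b, Cd79a and Ms4a1 had their highest values in Ang II-treated Plod1-/- mice and Irf4 was highest as a group in Ang II-treated WT mice.

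The B cell receptor genes had another order of groups, with their highest means in Ang II-treated Plod1-/- mice. Cd79a was listed at 0.581, 6.84, 4.55, 1.16 and 1.68 FPKM in these mice. It was at 0.910, 1.02, 0.606, 0.670 and 2.92 FPKM in Ang II-treated WT mice, at 0.867, 1.46, 1.80, 0.577 and 0.367 FPKM in saline-treated Plod1-/- mice and at 0.423, 0.837, 0.582, 0.383 and 0.915 FPKM in saline-treated WT mice. All neighbouring groups overlapped, and replicates 2 and 3 of the Ang II-treated Plod1-/- mice stood above every other mouse.

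Cd79b separated the groups more. Its level was 0.242, 3.68, 4.90, 1.86 and 2.21 FPKM in Ang II-treated Plod1-/- mice and 0.540, 0.818, 0.242, 0.414 and 1.53 FPKM in Ang II-treated WT mice. Saline-treated Plod1-/- mice had 0.221, 0.612, 0.772, 0.245 and 0.324 FPKM, and saline-treated WT mice 0.177, 0.129, 0.129, 0.130 and 0.0548 FPKM. In the Ang II-treated Plod1-/- group, 4 of 5 mice exceeded all other mice, and the exception was replicate 1, a library with Xist RNA.

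Ms4a1 stayed near the bottom of the scale. It was listed at 0.0406 to 0.228 FPKM in Ang II-treated Plod1-/- mice, at 0.0169 to 0.0719 FPKM in Ang II-treated WT mice, at 0.00577 to 0.0739 FPKM in saline-treated Plod1-/- mice and at 0 to 0.0317 FPKM in saline-treated WT mice. Other defining genes of B cells were as low. Pax5, the factor that keeps B cell identity, was at no more than 0.190 FPKM and Cr2, a complement receptor of mature B cells, at no more than 0.0516 FPKM in any mouse.

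Irf4 had a further order of groups, highest in Ang II-treated WT mice and lowest in saline-treated Plod1-/- mice. It was listed at 3.82, 3.18, 2.50, 1.87 and 2.63 FPKM in Ang II-treated WT mice, at 0.584, 0.136, 0.571, 0.121 and 0.448 FPKM in saline-treated WT mice, at 0.379, 0.426, 0.280, 0.122 and 0.291 FPKM in saline-treated Plod1-/- mice and at 0.259, 3.56, 0.930, 0.330 and 0.926 FPKM in Ang II-treated Plod1-/- mice. All 5 Ang II-treated WT mice were above both saline groups. Among Ang II-treated Plod1-/- mice only replicate 2 reached their range. The genotypes overlapped under saline, with an Irf4 level of 0.372 ± 0.229 FPKM for WT and 0.299 ± 0.117 FPKM for Plod1-/- (SD, n = 5 each).

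The first comparison asked what loss of LH1 does without Ang II, and it is the one that chose Igkc. The ratio of the group means, Plod1-/- over WT under saline, was 23.5 for Igkc, 7.04 for Ighm, 6.34 for Jchain, 2.13 for Mzb1, 1.62 for Cd79a, 3.51 for Cd79b, 1.69 for Ms4a1 and 0.805 for Irf4. On the log2(FPKM + 1) scale, which understates the change of low genes, the difference was 3.91 for Igkc, 2.40 for Ighm, 0.98 for Jchain and between -0.07 and 0.34 for the other 5 genes. The groups did not overlap for Igkc and Cd79b. Among all genes 0.767% were called in this comparison, and 4.22% of genes past the filter were higher without overlap (1.65% of genes with no filter). A gene was called at an adjusted p below 0.05 with a log2 fold change above 1 in size.

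Brown adipocyte genes and T cell genes also varied within the saline-treated Plod1-/- group. The summed level of the 10 brown adipocyte genes ran from 40.7 to 1422 FPKM in it and from 41.5 to 451 FPKM in saline-treated WT mice. The summed level of the 16 T cell genes ran from 3.07 to 32.9 FPKM and from 3.42 to 9.38 FPKM, and the saline-treated Plod1-/- mouse with the highest Igkc, replicate 4, had 4.92 FPKM. For white adipocyte genes the sums were 323 to 1512 and 248 to 737 FPKM. The same replicate 4 had a brown adipocyte sum of 65.7 FPKM and the lowest white adipocyte sum of its group, 323 FPKM. Replicate 2, at 95.8 FPKM of Igkc, had the highest of both in the group, 1422 and 1512 FPKM. The part of these cell types in the Igkc difference was not tested. Longer lists of B cell and plasma cell genes did not share the size of this difference: the median log2 difference was -0.04 over the 6 B cell genes past the filter and -0.37 over the 9 plasma cell genes, against -0.01 over all genes.

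Ang II in WT mice came with higher antibody and Irf4 RNA. Ighm rose by a log2 fold change of 3.03 (95% interval 1.81 to 4.25, limma adjusted p = 0.00339), and the ratio of the means was 11.9. Irf4 rose by 1.46 (95% interval 1.11 to 1.82, limma adjusted p = 0.00181), with a ratio of means of 7.53. Both were called and both were higher in 5 of 5 Ang II-treated mice than in any saline-treated mouse. In this comparison 6.38% of all genes tested were called higher and 10.4% were higher without overlap. It shares the saline-treated WT mice with the contrast that chose Igkc. Ighm followed Igkc over the mice (rho = 0.94), so its test is not independent of that choice. Irf4 passed the filter (1 FPKM or more in at least 5 mice) only through the Ang II group, and with no filter its adjusted p was 0.0112.

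The other members fell below that filter and were compared by a two-sided exact permutation test, whose smallest p with 5 mice against 5 is 0.00794. Jchain differed by 1.57 on the log2 scale (exact p = 0.00794), Cd79b by 0.56 (exact p = 0.00794) and Mzb1 by 0.60 (exact p = 0.0476). Cd79a at 0.38 (exact p = 0.127) and Ms4a1 at 0.02 (exact p = 0.349) did not pass. Adjusted over all genes with no filter, limma gave 0.0728 for Jchain, 0.0743 for Cd79b and 0.161 for Mzb1, so these 3 differences did not pass the correction. The Mzb1 p also missed 0.05 in 8 of the 10 fits that left out 1 mouse, and held only without Ang II-treated WT replicate 2 or 3 (0.00794 to 0.127 over the 10). Jchain and Cd79b were higher without overlap, as were 4.26% of all genes with no filter. Jchain, Cd79b and Mzb1 also followed Igkc over the mice (rho = 0.96, 0.72 and 0.84), so their tests share the limit given for Ighm. The Igkc level differed by 4.47, with a ratio of means of 47.7 and no overlap, and was not tested here.

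Fat markers moved with these genes. The summed level of the 10 white adipocyte genes was 1249 to 4717 FPKM in Ang II-treated and 248 to 737 FPKM in saline-treated WT mice, and 9 of the 9 tested were called higher. Of the 9 brown adipocyte genes tested, 7 were called higher, and their sum, which includes the gene not tested, was 626 to 4902 FPKM against 41.5 to 451 FPKM. Mitochondrial genes took 14.6% to 29.1% of the FPKM sum in Ang II-treated and 8.37% to 14.6% in saline-treated WT mice. The part of fat in the antibody RNA was not tested.

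In Plod1-/- mice, no member passed the correction over all genes between Ang II and saline. Ighm differed by 0.02 (95% interval -1.29 to 1.32, limma adjusted p = 0.986) and Jchain by 0.04 (95% interval -0.72 to 0.80, limma adjusted p = 0.933), and the sign of both turned under several alternatives. Cd79a differed by 0.77 (95% interval -0.15 to 1.69, limma adjusted p = 0.159). None of these 3 genes was called by limma and none had an unadjusted p under 0.05, where 13.9% of all genes tested were called. The exact permutation test gave p = 0.0397 for Cd79b, which was 1.15 higher on the log2 scale, and p = 0.0238 for Ms4a1, which was 0.12 higher. With no filter and adjustment over all genes limma gave 0.0617 and 0.0914 for the pair, so neither passed the correction. The exact p of Cd79b missed 0.05 when saline-treated replicate 1, 4 or 5 or Ang II-treated replicate 3 was left out (0.0714, 0.0556, 0.0556 and 0.0556), and that of Ms4a1 was 0.0857 without both libraries with Xist RNA. Irf4 was 0.59 higher (exact p = 0.0952, or 0.0238 and 0.0397 without Ang II-treated replicate 1 or 4) and Mzb1 0.12 higher (exact p = 0.5). Igkc was 0.46 lower under Ang II, without a test, and its groups overlapped.

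Ang II-treated Plod1-/- replicate 1, a library with Xist RNA, was the lowest of its group for Igkc, Ighm, Mzb1, Cd79a, Cd79b and Irf4. Without it, Cd79a was called (log2 fold change 1.04, limma adjusted p = 0.0445). Its macrophage genes summed to 1185 FPKM against 3103 to 6169 FPKM in the other 4 mice of the group, and its smooth muscle genes to 17091 FPKM against 2362 to 6244 FPKM. In the comparison as a whole, 12 of 13 macrophage genes were called higher under Ang II, with sums of 168 to 602 FPKM under saline, and 8 of 10 smooth muscle genes were called lower (backgrounds 8.38% and 5.51%). Their part in the receptor gene values was not tested.

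**Figure D2:**
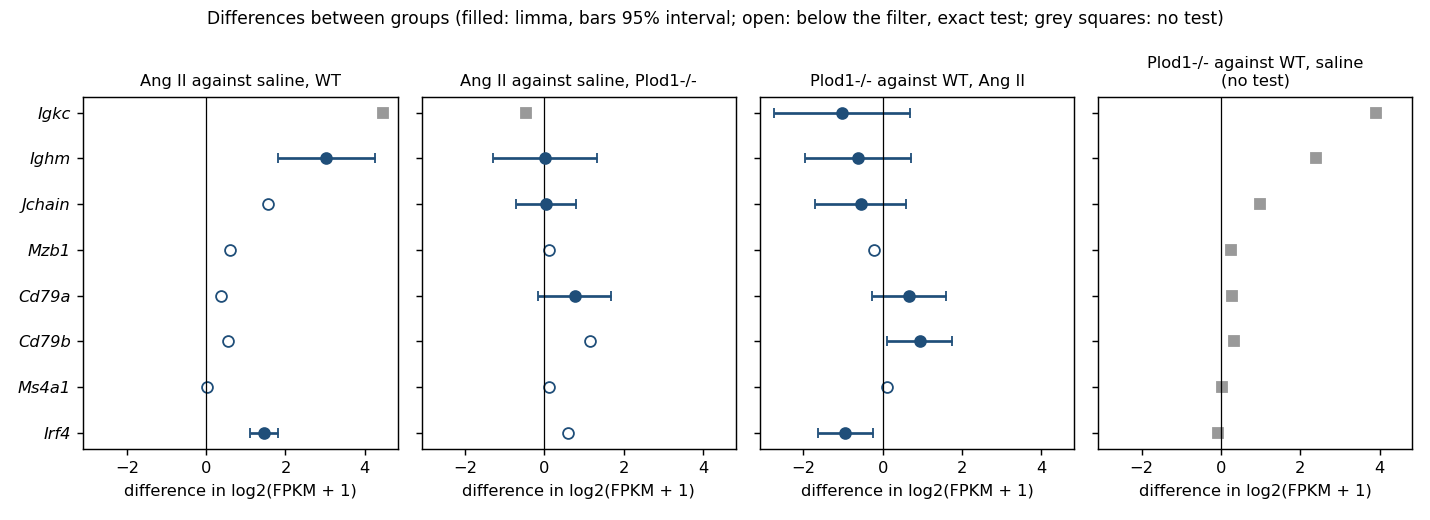
Difference in mean log2(FPKM + 1) (horizontal axis) for each gene (vertical axis) in 4 comparisons, with limma's 95% interval for genes past the filter (filled circles), open circles for genes compared by exact test and grey squares for differences that were not tested. The interval of Ighm lies above 0 for Ang II in WT mice (1.81 to 4.25) and spans 0 in Plod1-/- mice (-1.29 to 1.32).

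The response of Ighm to Ang II differed between the genotypes. The interaction, the response in Plod1-/- mice minus that in WT mice, was -3.01 (95% interval -4.83 to -1.20, limma adjusted p = 0.0115), and of all genes tested 16.1% were called and 6.36% were called with a lower response. It rests on the saline-treated mice as much as on the others: the Ighm level of WT mice was 3.70 ± 2.66 FPKM under saline and 43.9 ± 36.9 FPKM under Ang II, and that of Plod1-/- mice 26.03 ± 17.4 FPKM and 25.2 ± 16.98 FPKM (SD, n = 5 each). Since Ighm followed Igkc from mouse to mouse and Igkc was chosen on the saline-treated mice, this interaction is not independent of the choice. The interaction was -1.53 for Jchain (adjusted p = 0.0577), -0.87 for Irf4 (adjusted p = 0.0609), 0.39 for Cd79a (adjusted p = 0.557) and 0.60 for Cd79b (adjusted p = 0.264), and none of these was called. With weights per mouse or quantile normalization Jchain and Irf4 were also called lower.

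Between the Ang II-treated genotypes, the comparison that the choice of genes did not use, no member was called. Limma tested 6 members, with 0 called and 2 at an unadjusted p under 0.05, where 11.1% of all genes tested were called. The fit with no filter also called 0 of 8. In that fit 2.14% of all genes were called higher, and its share for both directions is not given. Igkc was 1.03 lower in Plod1-/- mice (95% interval -2.74 to 0.68, adjusted p = 0.331), Ighm 0.62 lower (interval -1.95 to 0.71, adjusted p = 0.456) and Jchain 0.55 lower (interval -1.70 to 0.60, adjusted p = 0.441). These intervals allow differences of more than 1 on the log2 scale, so similar antibody RNA in both groups was not shown. Irf4 was 0.94 lower (interval -1.63 to -0.25, limma adjusted p = 0.0428), past the threshold on p but under the fold threshold, and with no filter its adjusted p was 0.115. Irf4 passed the filter through the Ang II-treated WT mice, all 5 at 1 FPKM or more against 1 Plod1-/- mouse, so the filtered p is no support for a difference. Beside it, 6 of 9 brown adipocyte genes were called lower in Plod1-/- mice (background 3.67%), with sums of 171 to 625 FPKM against 626 to 4902 FPKM, and their part in the Irf4 difference was not tested.

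The receptor genes had differences of the opposite sign in the same mice. Cd79b was 0.93 higher in Plod1-/- mice (95% interval 0.12 to 1.75, limma adjusted p = 0.0773) and Cd79a 0.66 higher (interval -0.28 to 1.60, adjusted p = 0.256). Ms4a1 was 0.12 higher (exact permutation p = 0.0159), with an adjusted p of 0.111 in the limma fit of all genes with no filter. Mzb1 was 0.22 lower (exact permutation p = 0.437). Without Ang II-treated Plod1-/- replicate 1, the library with Xist RNA in this comparison, Cd79b was called higher (1.27, limma adjusted p = 0.00501), and Irf4, at -0.78, had an adjusted p of 0.0716.

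Longer lists of the same cell types gave a mixed picture in this comparison. Of 24 B cell genes, 8 were tested and 4 were called higher in Ang II-treated Plod1-/- mice: Cd52 (log2 fold change 3.32), Cd37 (2.14), Cd24a (1.78) and Cd72 (1.16), with a median of 0.87 over the 8 against 0.12 over all genes and a background of 7.45% called higher. A gene that passed the filter only through the group where it was high had to differ, so these counts are descriptions. Cd72, with 5 Plod1-/- mice and 1 WT mouse at 1 FPKM or more, is such a gene, and with no filter it was not called (adjusted p = 0.0837). Cd52 and Cd37 are surface proteins of many leukocytes, Cd24a also marks other cells, and Cd72 is a B cell inhibitory receptor. Of 15 plasma cell genes, 10 were tested and 2 were called higher, Fkbp11 (2.97) and Sdc1 (1.01), with a median of 0.82. With no filter Sdc1 was not called (limma adjusted p = 0.0584). Both are also made by other cells, the former in the secretory pathway and the latter as a surface proteoglycan. The 4 immunoglobulin constant genes tested were not called (median 0.11, 0 at an unadjusted p under 0.05), and these were Igha at 0.76, Iglc1 at 0.80, Ighg2b at -0.53 and Ighg2c at -0.92.

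Genes for B cell survival and homing included 4 of 10 tested that were called higher in Ang II-treated Plod1-/- than in Ang II-treated WT mice, where 7.45% of all genes were called higher. These were Il6 (2.91), a cytokine, Cxcr4 (2.46), the receptor of CXCL12, Il33 (1.66), an alarm cytokine, and Tnfrsf13b (1.55), a receptor of BAFF and APRIL. Il6 had no WT mouse and Tnfrsf13b 1 WT mouse at 1 FPKM or more, so both passed the filter through the Plod1-/- mice. With no filter, limma's adjusted p was 8.39e-04 for Il6, 0.0311 for Tnfrsf13b, 0.0330 for Cxcr4 and 0.0554 for Il33, which was then not called. Tnfrsf13b averaged 3.72 ± 2.04 FPKM in the Plod1-/- group against 0.497 ± 0.457 FPKM in the WT group (SD, n = 5 each). Cxcl13, the chemokine that draws B cells to follicles, had 225 FPKM in Ang II-treated WT replicate 1, a mouse with high Igkc and Ighm, and at most 23.4 FPKM elsewhere. It is named for that value, which was seen first. Macrophage genes moved with the Ang II-treated Plod1-/- group: 11 of 13 were called higher (7.45% of all genes), and their sum was 1185 to 6169 FPKM against 444 to 2374 FPKM in Ang II-treated WT mice. Of the other lists, 5 of 6 neutrophil genes, 5 of 5 red cell genes and 1 of 4 plasmacytoid dendritic cell genes were called higher, 1 of 10 white adipocyte genes and 2 of 10 smooth muscle genes were called lower (3.67% of all genes), and no call was made among 2 T cell, 4 lymph node stroma and 10 endothelial genes, while no NK cell gene passed the filter. Their part in the leukocyte genes of the B cell list was not tested.

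The same lists were compared with saline in each genotype, and the counts of the genotypes were not tested against each other. In Plod1-/- mice 4 of 7 B cell genes (Cd52, Cd37, Cd24a and Cd72), 3 of 9 plasma cell genes (Fkbp11, Sdc1 and Edem1) and 5 of 9 survival and homing genes (Cxcr4, Il6, Il33, Cxcl12 and Ltb) were called higher under Ang II, where 8.38% of all genes were. Cd72 and Il6, with no saline-treated mouse at 1 FPKM or more, and Ltb, with 1, passed the filter through the Ang II group and had to differ, so these counts support nothing by themselves. With no filter these 3 genes were called as well (limma adjusted p = 0.0197, 1.26e-04 and 0.0413). In WT mice 0 of 9 plasma cell genes were called by limma, with 6 at an unadjusted p under 0.05 and a median of -0.58, while 1 of 6 B cell genes was called lower (Cd24a, -1.06, background 2.28%, and not called with no filter) and 1 of 8 survival and homing genes higher (Cxcr4, 1.23). Igha, the IgA heavy chain, passed the filter through the Ang II group in both genotypes, with 0 saline-treated WT mice and 1 saline-treated Plod1-/- mouse at 1 FPKM or more. With no filter it was called for Ang II in WT mice (1.77, limma adjusted p = 0.0358) and not in Plod1-/- mice (1.82, adjusted p = 0.0570).

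The interaction called 3 of 9 B cell genes (Cd24a, Cd52 and Cd37), 6 of 10 plasma cell genes (Fkbp11, Creld2, Xbp1, Pdia4, Sdc1 and Edem1) and 5 of 11 survival and homing genes (Il6, Il33, Cxcr4, Ccl19 and Tnfrsf13b), all with a higher response in Plod1-/- mice, as had 9.69% of all genes tested. Il6 reached 1 FPKM only in Ang II-treated Plod1-/- mice, and Tnfrsf13b only there and in Ang II-treated WT replicate 1. Both thus passed the filter through the group where they were high, so these counts are descriptions and support nothing by themselves. Ighm was called in the other direction. Xbp1, Pdia4 and Creld2 act in protein folding of the endoplasmic reticulum in many cell types, and Xbp1 was at 82.8 ± 17.01 FPKM (SD, n = 5) in saline-treated WT mice, where antibody RNA was scarcest.

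The heavy chain genes show which antibody classes made up this RNA. The share of Ighm among the summed FPKM of heavy chain constant genes had a median of 87.8% under saline and 75.1% under Ang II for WT mice, and of 69.2% and 65.0% for Plod1-/- mice. The Ighg genes, which encode IgG, took 0.630% to 8.06%, 4.15% to 57.9%, 2.01% to 39.8% and 1.90% to 20.3% in the same order. The genes for IgG subclasses are close copies of each other, so their single values are uncertain. In Ang II-treated WT replicate 5, the mouse with the most antibody RNA, IgG genes took 57.9%, most of it Ighg2c at 107 FPKM. The heavy chain sum was only 2.13 to 7.43 FPKM in saline-treated WT mice, so their shares rest on little RNA.

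IgA stood out between the Ang II-treated genotypes, and this share was singled out after its values were seen. Igha took 15.5%, 37.9%, 20.8%, 16.9% and 10.9% of heavy chain FPKM in Ang II-treated Plod1-/- mice, a mean of 20.4% ± 10.4 (SD, n = 5). It took 11.02%, 8.96%, 7.21%, 5.02% and 2.90% in Ang II-treated WT mice, 7.02% ± 3.20 (SD, n = 5). Only the lowest Plod1-/- mouse fell inside the WT range, and the difference was 13.4 percentage points (exact permutation p = 0.0159, adjusted p = 0.0476 over the shares of IgM, IgG and IgA). The IgM share (63.4% against 68.7%, exact p = 0.603) and the IgG share (13.4% against 23.6%, exact p = 0.437) did not pass. Leaving out 1 mouse at a time gave a difference of 9.01 to 15.8 percentage points, and the adjusted p by exact permutation was 0.0952 in 8 of the 10 cases. It stayed at 0.0476 only without Ang II-treated WT replicate 1 or Ang II-treated Plod1-/- replicate 5.

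**Figure D3:**
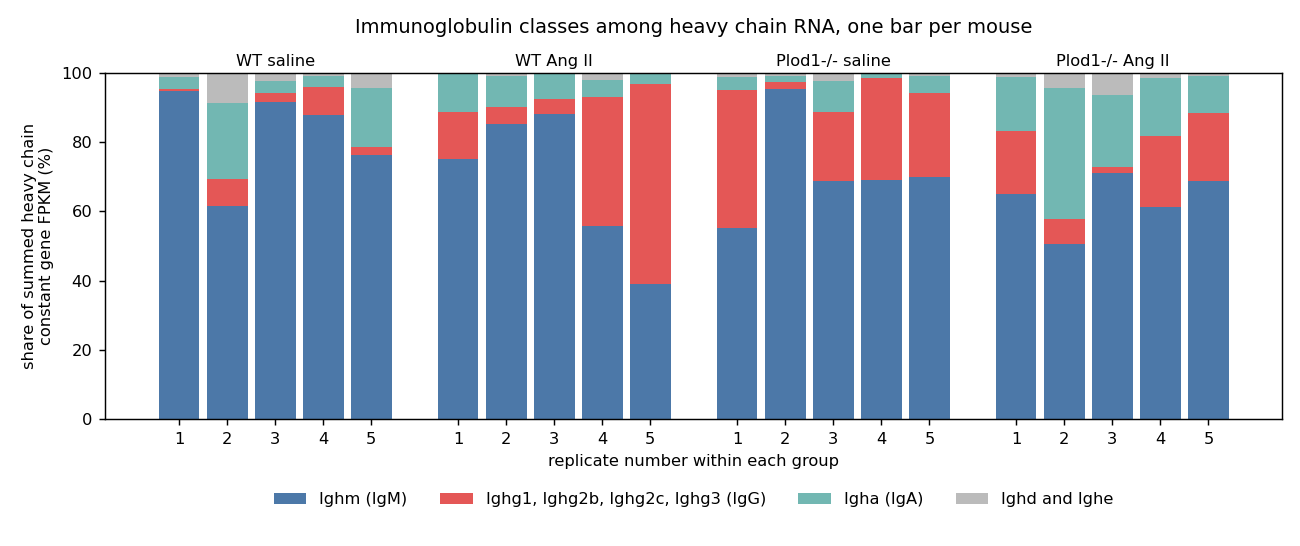
Share (%) of the summed FPKM of heavy chain constant genes taken by IgM, IgG, IgA and the remaining classes (vertical axis), 1 bar per mouse, by group and replicate number (horizontal axis). The IgA share was 10.9% to 37.9% in Ang II-treated Plod1-/- mice and 2.90% to 11.02% in Ang II-treated WT mice, and the IgG share reached 57.9% in Ang II-treated WT replicate 5.

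Antibody RNA carries variable segments, and the segments listed tell whether it came with many or few of them. Different B cell clones can use the same segment, so the number of segments is not a number of clones. Of the 292 kappa, lambda and heavy chain variable segments listed, 0 to 3 were at 1 FPKM or more in a saline-treated WT mouse. The number was 26, 7, 5, 13 and 59 in Ang II-treated WT mice, 10, 10, 23, 13 and 2 in saline-treated Plod1-/- mice and 5, 33, 2, 13 and 27 in Ang II-treated Plod1-/- mice. More segments were listed where Igkc was higher: over the 20 mice Pearson's r was 0.78 and Spearman's rho 0.86, with r = 0.71 without the 2 mice farthest from the median Igkc and r = 0.81 between deviations from the group means. The measures share reads of the same cells and libraries, and Igkc was chosen on 10 of the mice, so this is a description.

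The leading segment took a small share of segment FPKM in some mice and a large share in others. In saline-treated Plod1-/- replicate 2, Igkv5-39 took 41.8% of the segment sum at 40.8 FPKM. In Ang II-treated WT replicate 1, Igkv4-57-1 took 27.5% at 68.5 FPKM. Ang II-treated WT replicate 5 had the most segments, and its first, Igkv6-25, took 8.48%. Igkv14-126 led in Ang II-treated WT replicates 2 and 3 and in saline-treated Plod1-/- replicate 5, and the lambda segment Iglv1 led in replicates 1, 4 and 5 of the Ang II-treated Plod1-/- mice. Segments of a family are similar in sequence and reads may be divided among them, so a segment's name is uncertain.

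**Figure D4:**
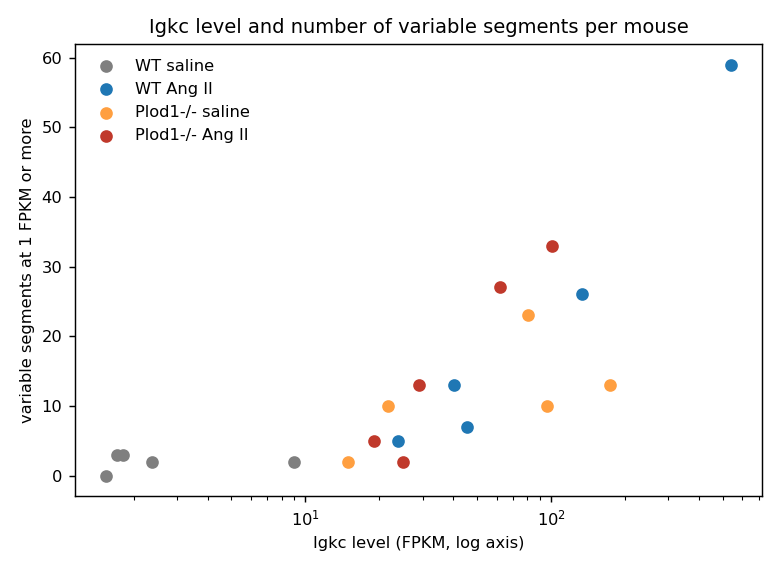
Number of immunoglobulin variable segments at 1 FPKM or more (vertical axis) against the Igkc level in FPKM (horizontal axis, log scale), 1 point per mouse, coloured by group. Saline-treated WT mice had 0 to 3 segments and Ang II-treated WT replicate 5, at 541 FPKM of Igkc, had 59.

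The secretory genes varied together from mouse to mouse. Over 20 mice and on the log2(FPKM + 1) scale, Ighm and Jchain had r = 0.89 and rho = 0.95 (permutation p = 1e-05 for each, the smallest the resamples allow, adjusted p for rho = 5.6e-05), with r = 0.89 without the 2 farthest mice. Jchain and Mzb1 had r = 0.86 and rho = 0.90 (permutation p = 1e-05 for each, adjusted p for rho = 5.6e-05), with r = 0.83 without the 2 farthest. With Igkc, rho was 0.96 for Jchain, 0.94 for Ighm and 0.84 for Mzb1, given without a test. Between deviations from the group means r was 0.82 for Ighm with Jchain and 0.80 for Jchain with Mzb1, so these relations were present within groups. Permutations mixed mice of all 4 groups, so each p also reflects differences between groups. The relations within groups were not tested.

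Cd79a and Cd79b, which form 1 receptor unit, had r = 0.89 (permutation p = 1e-05) and rho = 0.73 (permutation p = 0.00046, adjusted p = 0.00156). Without Ang II-treated Plod1-/- replicates 2 and 3, their highest mice, r was 0.75, and between deviations from group means it was 0.85. Cd79b followed the secretory genes about as closely, with rho = 0.74 for Ighm (adjusted p = 0.00144) and 0.71 for Jchain (adjusted p = 0.00204), by permutation, although r was lower, at 0.53 and 0.45 (permutation p = 0.016 and 0.0488) and 0.47 and 0.42 without the 2 farthest mice. For Cd79a, rho was 0.63 with Ighm and 0.54 with Jchain (permutation, adjusted p = 0.00832 and 0.0235), with r = 0.50 and 0.51 (permutation p = 0.0228 and 0.0282) and 0.48 and 0.46 without the 2 farthest mice. The rho of Cd79b does not separate secretory from receptor genes, but r between deviations from group means was lower across the 2 kinds. It was 0.49 for Ighm and 0.44 for Jchain with Cd79b, and 0.49 and 0.53 with Cd79a. Within a kind it was 0.82 for Ighm with Jchain and 0.85 for Cd79a with Cd79b. The difference between these values was not tested. Of the 21 pairs without Igkc, 18 had an adjusted p for rho below 0.05, over a family of 28 pairs. The pairs beyond that were Irf4 with Ms4a1, Mzb1 and Cd79b. All members share the library and its scaling.

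Irf4 followed fat genes from mouse to mouse. With the summed level of the 10 white adipocyte genes, Irf4 had r = 0.86 (permutation p = 1e-05, adjusted p = 3.2e-04 over 32 relations) and rho = 0.83 (permutation p = 3e-05, adjusted p = 9.6e-04), with r = 0.81 without Ang II-treated WT replicate 1 and Ang II-treated Plod1-/- replicate 2 and r = 0.76 between deviations from group means. With brown adipocyte genes, rho was 0.77 and r 0.79 (permutation p = 1.3e-04 and 6e-05, adjusted 0.00208 and 6.4e-04), with r = 0.81 without the same 2 mice and 0.45 between deviations. With T cell genes rho was 0.12 and r 0.06 (permutation p = 0.624 and 0.818, which are also the adjusted values, with r = -0.07 without the same 2 mice). The only Ang II-treated Plod1-/- mouse with Irf4 in the range of Ang II-treated WT mice, replicate 2 at 3.56 FPKM, had the highest white adipocyte sum of all 20 mice, 7055 FPKM. Irf4 is kept here as a member by the rule, although its values followed these fat genes.

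Cd79b followed macrophage genes, with r = 0.83 (permutation p = 5e-05, adjusted p = 6.4e-04) and rho = 0.72 (permutation p = 0.00054, adjusted p = 0.00432), r = 0.72 without Ang II-treated Plod1-/- replicates 2 and 3 and r = 0.58 between deviations from group means. For Ighm with macrophage genes, rho was 0.42 and r 0.35 (permutation p = 0.0687 and 0.126, adjusted 0.0956 and 0.192), with r = 0.31 without the 2 farthest mice and 0.44 between deviations from group means. White adipocyte genes went with Ighm at rho = 0.74 and r = 0.72 (permutation p = 3e-04 and 3.9e-04, adjusted 0.0032 and 0.00312), with r = 0.62 without the 2 farthest mice and 0.57 between deviations from group means. They also went with Cd79b, at rho = 0.65 and r = 0.57 (permutation, adjusted p = 0.01 and 0.0197), with r = 0.36 between deviations. For Cd79a, rho was 0.62 with white adipocyte, 0.60 with macrophage and 0.66 with T cell genes (permutation, adjusted p = 0.0114, 0.015 and 0.01).

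**Figure D5:**
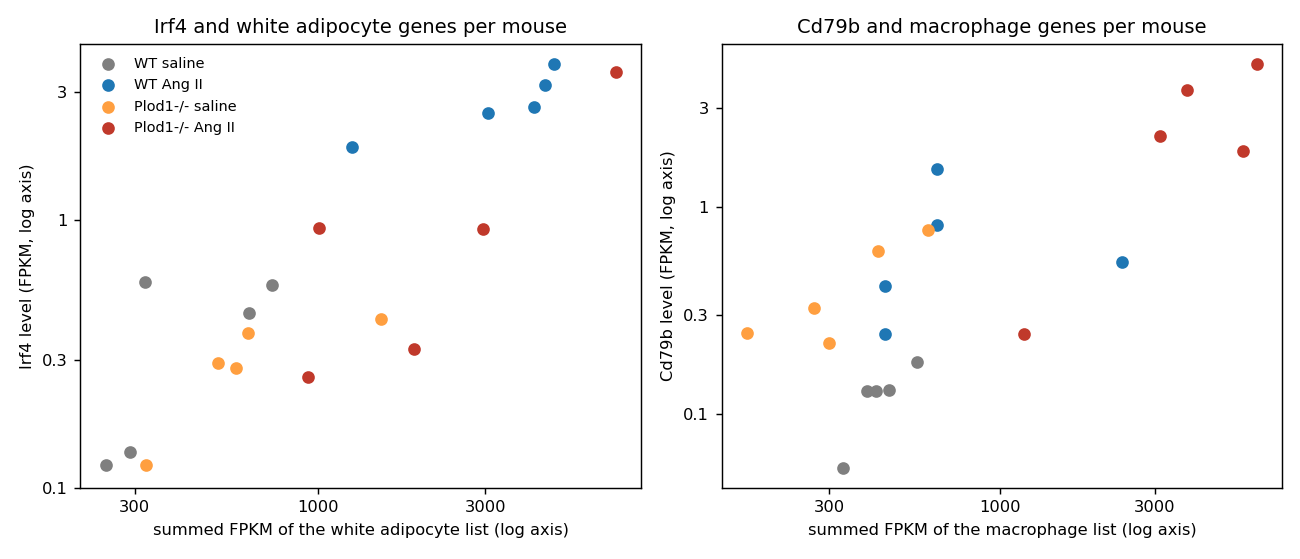
Left, Irf4 level (FPKM) against the summed FPKM of white adipocyte genes. Right, Cd79b level against the summed FPKM of macrophage genes. All axes are log scales with 1 point per mouse, coloured by group. Irf4 was higher where the white adipocyte sum was higher (rho = 0.83), up to the Ang II-treated Plod1-/- mouse at 7055 FPKM, and Cd79b with the macrophage sum (rho = 0.72).

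Among 13235 genes with 1 FPKM or more in at least 5 of the 20 mice, immunoglobulin segments and members left out, the genes most like Irf4 by Spearman's rho over 20 mice were C1qtnf9 (0.90), Dgat1 (0.89), Igfals (0.88), Adrb3 (0.88) and Acaa1b (0.88). Adrb3 is the adrenergic receptor of adipocytes, and Dgat1 makes triglyceride. Adrb3 averaged 68.7 FPKM in Ang II-treated WT mice, against 2.84 FPKM in WT mice given saline and 5.76 and 9.39 FPKM in Plod1-/- mice given saline or Ang II. Most like Cd79a were Irf1 (0.85), an interferon-response factor, Ltb (0.84), a lymphotoxin subunit made by lymphocytes, Themis2 (0.83), a signalling protein of B cells and macrophages, Gnb5 (0.82) and Gimap3 (0.82), a GTPase of lymphocytes. Most like Igkc were Scap (0.86), the escort protein of sterol-regulated factors, Mfsd3 (0.83), Gm10762 (0.83), Sdsl (0.82) and Tap2 (0.82), a peptide transporter for antigen presentation. The highest of 13235 values is high by selection, so these are given without a p.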

How the data were processed

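RNA of 20 abdominal aortas, each library treated as 1 mouse, was grouped by the labels. The authors removed ribosomal reads, aligned with HISAT2 and deposited FPKM per Ensembl gene from stringtie, cuffquant and cuffnorm. The submitters' processing notes name HISAT2 2.1.0, Bowtie2 2.2.3, HTSeq 0.6.0 and the build mm10. Of 43422 genes, 43226 matched GENCODE mouse release 21. The FPKM sum per library was 344207 to 437790.

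Values were log2(FPKM + 1). Each comparison used limma 3.58.1 (R 4.3.3) with a variance trend on its own 10 mice and genes at 1 FPKM or more in at least 5 mice, or all 20 mice for the interaction, with Benjamini-Hochberg adjustment and two-sided tests. A gene was called where the adjusted p was under 0.05 and the log2 fold change was beyond 1 in either direction. Members below the filter had exact permutation tests. Correlations used 100000 resamples (scipy 1.17.1) that mixed mice regardless of group, so their p also reflect differences between groups. On simulated data for the genotypes under Ang II, 158 of 200 genes changed by 1.5 (log2) were recovered, with 1 false call among 12146 genes. With a change of 3, 179 of 200 were recovered, with 5 false calls among 12149 genes. The changed genes were drawn from all genes past the filter, so these counts do not give the recovery for the members.

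The members and the 15 other gene lists were chosen with earlier results of these data known. Named genes were the 8 members, list genes called in a tested comparison (otherwise the 3 of highest mean), the 5 genes most like Igkc, Cd79a and Irf4, the leading variable segment of each mouse, Plod1 and Xist. Pax5, Cr2, Cxcl13, Iglc1, Ighg2b and Ighg2c fall outside that rule and were picked with their values known. Deviations from group means and the alternatives for the IgA share were added after the data were seen.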

Additional observations from a re-analysis of the deposited data

Results flagged for a closer look

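In 3 of 32 sets of 5 mice, the highest mouse lay further from the nearest of the others than Dixon's limit (0.71 of the range), and chance alone gives about 1 in 20. Saline-treated WT replicate 3 had an Igkc level of 9.01 FPKM against 2.38 FPKM in the next mouse of its group. Ang II-treated WT replicate 5 had 2.92 FPKM of Cd79a against 1.02 FPKM in the next mouse, and 0.0719 FPKM of Ms4a1 against 0.0310 FPKM, and it also held the highest Igkc, Ighm and Jchain of all 20 mice. The response of Ighm to Ang II differed between Plod1-/- and WT mice by -3.01 on the log2 scale (limma interaction, adjusted p = 0.0115), with 5 of 5 Ang II-treated WT mice above all saline-treated WT mice and overlapping groups in Plod1-/- mice. This interaction is not independent of the choice of Igkc, which used the saline-treated mice, and 6.36% of all genes tested were called with a lower response. The causes were not tested.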

How the results depend on the processing

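Between the Ang II-treated genotypes, the count of members called, 0, became 1 with a pseudocount of 0.1, with weights per mouse and with quantile normalization (Irf4 each time, at -1.65, -1.15 and -1.15), and 1 without the libraries with Xist RNA (Cd79b). Irf4 had passed the filter through the WT mice, and with no filter it was not called. Leaving out 1 mouse gave 0 to 1: Irf4 was called without Ang II-treated WT replicate 4 or Ang II-treated Plod1-/- replicate 2, and Cd79b without Ang II-treated Plod1-/- replicate 1. For Ang II in Plod1-/- mice the count was 0 to 1 in the same way (Cd79a without Ang II-treated Plod1-/- replicate 1). The interaction had 1 call, and 2 with a pseudocount of 0.1 (Jchain added), 3 with weights per mouse, 3 with quantile normalization (Jchain and Irf4 added) and 1 to 3 with a mouse left out. These were Jchain without replicates 2, 3 or 4 of Ang II-treated WT mice, saline-treated Plod1-/- replicate 5 or Ang II-treated Plod1-/- replicate 5, and both Jchain and Irf4 without Ang II-treated Plod1-/- replicate 2. In WT mice 2 members were called under each alternative except with mitochondrial genes left out and FPKM rescaled, which added Jchain (3 called). Why these calls moved was not tested.

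The differences of Ighm and Jchain with Ang II in Plod1-/- mice turned sign: Ighm was -0.0435 with quantile normalization, -0.0580 with mitochondrial genes left out and -0.0587 without the libraries with Xist RNA, Jchain was -0.169 with quantile normalization and -0.0164 without those libraries, and Mzb1 was -0.0607 with quantile normalization. With 1 mouse left out Ighm ran from -0.37 to 0.33 and Jchain from -0.15 to 0.20. Quantile normalization moved the median of all genes between the Ang II-treated genotypes from 0.12 to -0.04 and the calls from 920 higher and 453 lower to 733 and 632. It also moved the calls for Ang II in Plod1-/- mice from 1034 higher and 680 lower to 887 and 880, and those of the interaction from 1285 and 844 to 981 and 1146 (1049 and 1014 with mitochondrial genes left out).

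With replicate number as a block, the counts of members called were 0 between the Ang II-treated genotypes, 2 for Ang II in WT, 0 for Ang II in Plod1-/- mice and 1 for the interaction, the same counts as without it. Deviations of same-numbered mice correlated between -0.332 and 0.452 over 30 pairs, so the numbers were not taken as a pairing, and 5 of 20 mice correlated best with a mouse of their own number. Of the 21 pairs of members without Igkc, 18 had an adjusted p for rho below 0.05 with all mice, 15 without the libraries with Xist RNA and 19 with mitochondrial genes left out. Depth limits Ms4a1, Mzb1 and saline-treated WT values most, since they are few reads of unknown number.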
